A study of Mus musculus with 16 samples.

Results

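The genes described here are the mouse solute carrier genes, taken as every RefSeq gene of the mm10 assembly whose symbol begins with Slc and a digit and whose span holds a region of Dazl crosslinking. Of the 384 such symbols in the RefSeq table, 65 had a region in the span. Of these, 61 had a coverage value of their own, among 3203 genes with a value in the whole series, and they held 152 of the 7838 regions that were given to a gene. Another 4 genes, Slc16a3, Slc5a3 and Slc51b among them, had only regions that also lie in an overlapping gene, and without strand the partners cannot be told apart. A pair of the 61 genes match by name and encode neither a carrier nor a subunit of one: Slc7a6os, named for its place opposite Slc7a6, and Slc9a3r1, a scaffold protein also called NHERF1.

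Solute carriers are membrane proteins that move amino acids, sugars, ions, vitamins, nucleotide sugars and metabolites across the plasma membrane and the membranes of organelles, either down a gradient or coupled to an ion. Some work with a partner: Slc3a2 (CD98) is the heavy chain that brings Slc7a5, the large neutral amino acid exchanger, to the cell surface, and basigin (Bsg) does the same for the lactate carrier Slc16a1. Dazl is a germ cell protein that binds RNA through an RNA recognition motif and takes part in the control of mRNA translation and stability, so coverage on a carrier gene reports contact of Dazl with its RNA, not transport and not the amount of protein.

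The measurements are KIN-CLIP libraries, a form of iCLIP in which pulsed ultraviolet laser light links Dazl to RNA for a set time. All come from GC-1 spg, a mouse line derived from spermatogonia, as 1 clone in which Dazl is induced with doxycycline, so every library carries the transgene and no library without it was analysed here. The labels cross a laser power of 1 or 2.6 mW with a Dazl level of 1x or 4.2x and with crosslinking for 30, 180 or 680 s. The samples of 0 s were not analysed here, which leaves 12 libraries, 1 for each condition, and no background without light.

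Coverage of a gene is the sum, over its regions, of width times the score that the authors call normalized coverage, so it grows with the number of regions and carries no unit of reads. Library totals ran from 11271 to 252932, the Slc genes held between 1.54% and 1.79% of each total, and the depth in reads is unknown. In the 30 and 180 s libraries of 1 mW and 1x Dazl, 75.0% and 83.6% of Slc regions stood at a coverage of 1, the lowest listed, against 74% and 80.5% of all regions. Marker genes were read from the same coverage, which reports Dazl contact and does not by itself mark a cell type. Of 10 spermatogonial genes 3 had a value (Mov10l1, Rhox13 and Sall4, means of 1.67 to 2.42), and Dazl itself had none. Of 6 mesenchymal genes 3 had means of 23.3 to 715. Of the other lists, 2 of 5 Sertoli genes (12.3 to 12.8), 1 of 3 endothelial genes (4.33), 0 of 5 Leydig genes and 0 of 3 macrophage genes had a value. Of all protein-coding genes 14.5% had one. What part, if any, cell identity plays in the Slc values was not tested.

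A value was present for 16.3% of the protein-coding Slc symbols and for 14.5% of all 21900 protein-coding genes. The median Slc gene had a mean coverage over the 12 libraries of 15.5, against 16.3 for all genes. Per listed nucleotide, that is mean coverage over the summed width of a gene's regions, the medians were 0.630 and 0.632. This scale accounts for region width alone and not for the amount of RNA. A sole region was found in 28 of the 61 genes (45.9%), against 49.2% of all genes. At this overall level the solute carriers thus lay close to the middle of the series, while single members spread from 1.33 to 239.

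Amino acid carriers held the most Slc coverage. A value was found for 20 of 64 such symbols, with 71 of the 152 regions, and their mean coverages summed to 909. Slc7a6os was counted among them by its name, and the heavy chain Slc3a2 as well. The sums were 200.7 for 5 of 32 metal ion carriers, 174 for 1 of 14 monocarboxylate carriers (Slc16a1), 171 for 6 of 40 in the group of nucleotide sugar and nucleoside carriers, in which the acetyl-CoA carrier Slc33a1 was also counted (52.5), 110 for 8 of 47 mitochondrial carriers and 177 for 12 of 86 symbols of other families. The 7 of 59 carriers of inorganic ions and pH, Slc9a3r1 included, summed to 81.2, and the 2 of 33 sugar and vitamin carriers to 48.3. By subfamily, Slc38 (5 of 11) and Slc7 (6 of 16) had values most often among the subfamilies with more than 10 symbols. By contrast, 3 of 25 Slc22 genes, the organic ion carriers, and 0 of 13 Slc5 and 0 of 11 Slc26 genes had one, with the overlapping Slc5a3 left out.

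Slc38a2 (gene ID 67760), a sodium-coupled carrier of small neutral amino acids, had the highest summed coverage, rank 38 of 3203, from 13 regions in its span on chromosome 15 (96687392 to 96699728, mm10). With 1 mW and 1x Dazl its coverage was 20, 14 and 187 at 30, 180 and 680 s, and with 1 mW and 4.2x it was 158, 122 and 321. At 2.6 mW it was 193, 202 and 435 with 1x, and 320, 362 and 530 with 4.2x. The 680 s library was the highest of each series of 3 times, and the 30 and 180 s libraries of 1 mW and 1x stood far below the other 10.

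Slc38a1 (gene ID 105727), a carrier of the same subfamily that takes up glutamine, lies nearby on the chromosome (96571418 to 96643438) and had 21 regions, the most of any Slc gene. Its coverage was 35, 24 and 159 with 1 mW and 1x, 168, 94 and 329 with 1 mW and 4.2x, 148, 136 and 452 with 2.6 mW and 1x, and 311, 369 and 539 with 2.6 mW and 4.2x. Its rank by summed coverage was 40, but per listed nucleotide its mean was 0.61 against 0.97 for Slc38a2. The sum of Slc38a1 thus came from many regions of ordinary height.

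Slc16a1 (gene ID 20501), the proton-coupled carrier of lactate and pyruvate known as MCT1, had 10 regions on chromosome 3 (104638664 to 104658462). Its coverage was 24, 15 and 98 with 1 mW and 1x, 138, 98 and 196 with 1 mW and 4.2x, 155, 129 and 279 with 2.6 mW and 1x, and 310, 308 and 341 with 2.6 mW and 4.2x. At 2.6 mW and 4.2x the 3 times lay close together, unlike in the other 3 series.

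The partners Slc3a2 and Slc7a5 stood next to each other in the order, with 6 regions each and means of 104 and 85.0. Slc3a2 had 9, 8 and 63 with 1 mW and 1x, 67, 48 and 147 with 1 mW and 4.2x, 73, 88 and 185 with 2.6 mW and 1x, and 154, 180 and 225 with 2.6 mW and 4.2x. Slc7a5 had 20, 8 and 58, then 63, 38 and 94, then 53, 69 and 148, and 154, 145 and 170 in the same order. Both have the same listed length, 102 nt, and Slc7a5 lay above its partner in the 30 s library of 1 mW and 1x, level with it at 180 s and below it at 680 s.

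The other members with a mean over 50 were Slc39a7 (78.6), a zinc carrier that releases zinc from the endoplasmic reticulum, Slc7a1 (62.8), the cationic amino acid carrier that takes up arginine, Slc39a10 (61.8), a zinc importer, and Slc33a1 (52.5), which brings acetyl-CoA into the endoplasmic reticulum. Below them came the choline carrier Slc44a1 (45.2), the reduced folate carrier Slc19a1 (42.0), Slc35b1 (41.1) and the GDP-fucose carrier Slc35c1 (36) of the nucleotide sugar family, Slc10a7 (31.8) and Slc49a4 (31.3). The first 3 genes together held 34.4% of the summed means of all 61, and 20 members had a mean below 10.

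**Figure D1:**
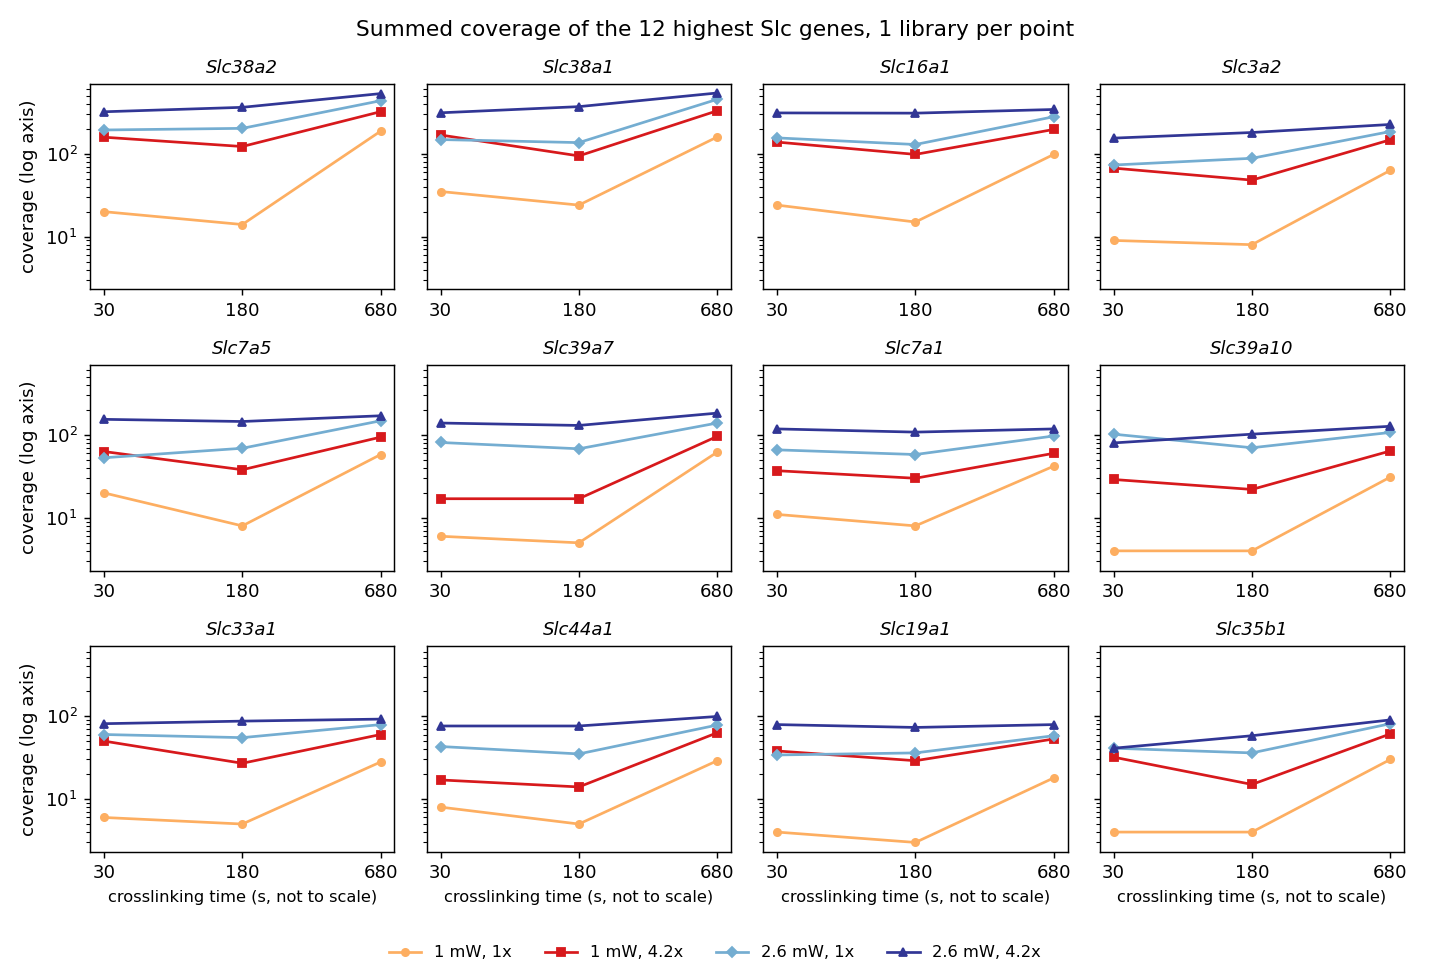
Summed coverage (vertical, log axis) of the 12 Slc genes with the highest mean, at 30, 180 and 680 s (horizontal, not to scale), with 1 line for each combination of laser power and Dazl level and 1 library per point. In all 12 panels the series of 1 mW and 1x lies lowest at 30 and 180 s, and the series of 2.6 mW and 4.2x lies highest at 680 s; Slc38a2 runs from 14 to 530.

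Per listed nucleotide the order differed. Slc10a7, a member of the bile acid carrier family with 1 region of 17 nt (chr8:78731585-78731601, 2411 nt before the annotated 3′ end of its gene), had the highest mean of the Slc genes, 1.87, which was rank 14 of 3203. Its coverage was 11, 3 and 26 with 1 mW and 1x, 21, 15 and 35 with 1 mW and 4.2x, 7, 8 and 61 with 2.6 mW and 1x, and 68, 59 and 68 with 2.6 mW and 4.2x. In the series of 1x Dazl the 30 s library of 2.6 mW was lower than that of 1 mW, the reverse of the library totals. The mitochondrial carrier Slc25a30 (1.18), Slc39a7 (1.16), the zinc carrier Slc30a6 (1.07) and the creatine carrier Slc6a8 and the fucose carrier Slc35c1 (both 1.06) came next.

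At the other end, 11 members had no region above the lowest value listed in the 3 libraries of 680 s other than that of 1 mW and 1x: Slc15a2, Slc15a5, Slc17a6, Slc22a12, Slc22a29, Slc25a51, Slc35f1, Slc51a, Slc6a15, Slc6a19 and Slc9a4. The same held for 412 of all 3203 genes. Some could not be told from each other in any library: Slc25a51 and Slc9a4 both had 1 in 7 libraries, 2 in 4 and 3 in 1. Several of these are known as carriers of kidney, gut or nerve, such as the urate carrier Slc22a12, the intestinal and renal amino acid carrier Slc6a19 and the vesicular glutamate carrier Slc17a6. In some of the 30 and 180 s libraries a few of them stood above 1, such as Slc35f1 with 3 in the 30 s library of 2.6 mW and 1x. The lowest listed value itself differed between the 680 s libraries, so the tests on these members say little of the gene.

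The regions lay mainly toward the 3′ ends of the genes. The strand of the gene was known for 47 of the 61 members from the RefSeq promoter table, and 63.1% of their 111 regions lay within 3000 nt of the annotated 3′ end, against 63.7% of all 6215 such regions. Inside that stretch the shares differed. Within 1000 nt of the 3′ end were 26.1% of Slc regions (exact 95% interval 18.2% to 35.3%) and 37.3% of all regions, whereas between 1000 and 2000 nt were 27.9% and 17.2%. Regions of 1 gene share that gene, so the interval covers counting alone and is too narrow, and no test was run. Slc16a1 gave 7 of the 31 regions between 1000 and 2000 nt.

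Distances to the nearer gene end, which need no strand, ran the same way. For 51 of 152 Slc regions (33.6%, exact 95% interval 26.1% to 41.7%) the nearer end was within 1000 nt, against 42.6% of all 7838 regions, and even placement over the spans would give 10.7% and 12.8%. The median distance was 1723 nt for Slc regions and 1334.5 nt for all, in genes whose median spans were 30496 and 31525 nt. When only the highest region of each gene was counted, 18 of 61 Slc genes (29.5%) and 39.4% of all genes had it within 1000 nt of an end. The exact width of 17 nt was found for 133 of 152 Slc regions (87.5%) and 81.9% of all. The files hold no exons, so introns and untranslated regions were not told apart here.

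**Figure D2:**
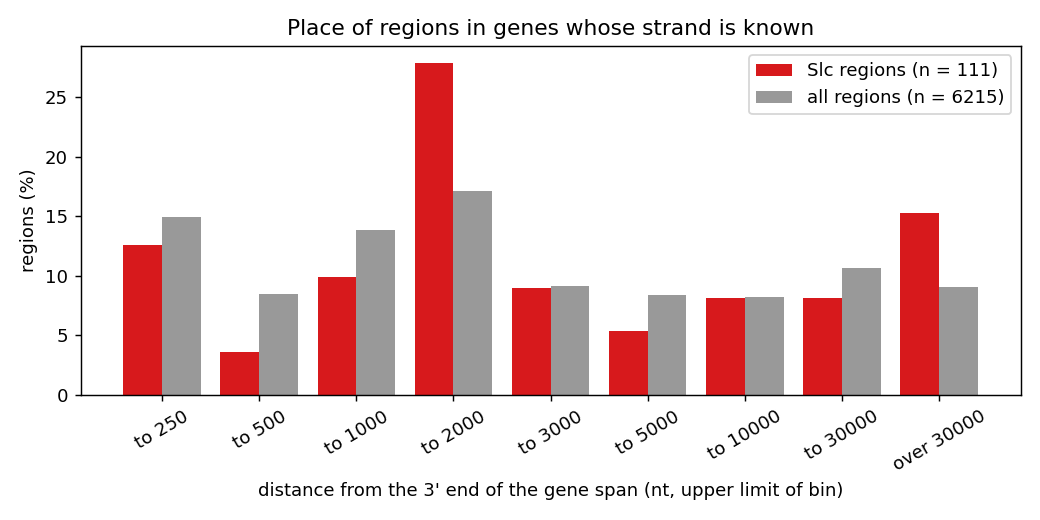
Share of regions (vertical, %) by distance from the annotated 3′ end of the gene span (horizontal, bins of unequal width named by their upper limit in nt), for 111 Slc regions and for all 6215 regions in genes of known strand. Slc regions make up 27.9% between 1000 and 2000 nt, where all regions make up 17.2%, and 3.6% between 250 and 500 nt, where all make up 8.51%.

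Single genes showed this place in detail. In Slc39a7 all 4 regions lay between 37 and 199 nt from the 3′ end, and in Slc19a1 all 3 lay between 41 and 197 nt. In Slc33a1 the 4 regions lay within a stretch of 284 nt that began 38 nt from the end. In Slc16a1, 9 of 10 regions lay 340 to 2609 nt from the 3′ end and 8 of them in a stretch from chr3:104656468-104656484 to chr3:104658106-104658122, while the other 1 lay 158 nt from the 5′ end (chr3:104638822-104638838). Slc3a2 had the same outline, with 5 regions between 696 and 1032 nt from the 3′ end and 1 region 441 nt from the 5′ end.

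A different place was seen in members whose regions lay far from both ends of the span. The 4 regions of Slc44a1 lay 55972 to 56759 nt from the 3′ end of a span of 182092 nt, the 2 of Slc49a4 lay 36164 and 36236 nt from it, and the 2 of the zinc carrier gene Slc39a11 lay 174696 and 174762 nt from it. Measured from the 3′ end alone, 15.3% of Slc regions and 9.09% of all lay over 30000 nt away, and some of these were close to the 5′ end of a long gene, as in Slc25a48 (573 nt). Whether a shorter transcript ends near these regions cannot be told from gene spans. Within 1000 nt of the 5′ end were 8 of 111 Slc regions (7.2%) and 6.6% of all.

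The question put to Dazl level is how coverage follows the amount of protein. With 4.2x in place of 1x Dazl, coverage was higher for 55 of 61 Slc genes and lower for 0 (limma, adjusted p under 0.05; 0 were lower at an unadjusted p under 0.05 too). Over all genes 82.4% were called higher and 0 of 3203 lower, also at an unadjusted p under 0.05. A call higher was thus the rule in the whole series. The median change, on the log2(coverage + 3) scale, was 0.86 for the Slc genes and 0.88 for all. Without the 11 members at the floor, 47 of 50 were higher, against 85.1% of the other genes.

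Among the called members the change was largest for Slc6a6, the taurine carrier. Its 1 region had 1, 1 and 10 with 1 mW and 1x, 15, 6 and 16 with 1 mW and 4.2x, 1, 1 and 21 with 2.6 mW and 1x, and 27, 23 and 27 with 2.6 mW and 4.2x. At 30 and 180 s the 1x libraries stood at the floor at both laser powers, and the 4.2x libraries stood at 6 or more. The change was 1.64 ± 0.28 (log2, SE; adjusted p = 4.69e-06; higher in 6 of 6 matched pairs), 0.83 above the median of the genes nearest in mean coverage, called genes of equal coverage below. Slc25a48, a mitochondrial carrier, followed with 1.54 ± 0.30, the creatine carrier Slc6a8 with 1.51 ± 0.28, Slc19a1 with 1.49 ± 0.32 and Slc16a1 with 1.39 ± 0.37. These members were called and higher in 6 of 6 pairs.

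Slc19a1, which takes up reduced folates, had 4, 3 and 18 with 1 mW and 1x and 38, 29 and 53 with 1 mW and 4.2x. At 2.6 mW it had 34, 36 and 58 with 1x and 79, 73 and 79 with 4.2x. In each of the 6 pairs the 4.2x library was the higher, and the distance between the Dazl levels was wider at 1 mW and 30 s than at 2.6 mW and 680 s. The library totals ran the same way, 5.00 times as high with 4.2x at 1 mW and 30 s and 1.24 times at 2.6 mW and 680 s.

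Members not called for Dazl include Slc30a7 (0.56 ± 0.29, adjusted p = 0.0634), Slc25a11 (0.40 ± 0.20, adjusted p = 0.0557) and 3 floor members, Slc51a, Slc35f1 and Slc6a15. Slc30a7, a zinc carrier of the secretory pathway, had 13, 4 and 16 with 1 mW and 1x and 15, 12 and 34 with 1 mW and 4.2x, then 17, 17 and 36 and 23, 24 and 46 at 2.6 mW. Its 4.2x library was the higher in 6 of 6 pairs, by little at 30 s.

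Against genes of equal coverage the Slc genes as a group did not stand to one side for Dazl: 26 of 61 changed by more than the median of their neighbours, 30 by less, and among the 41 members with a mean of at least 10 the counts were 20 and 21. For those 41 the median change was 0.98, against 1.05 for all genes with such a mean. Of these 41 the furthest above were Slc6a6, Slc6a8 (0.63) and Slc25a48 (0.58), followed by Slc19a1 (0.36) and Slc38a7 (0.33), and among those far below were Slc30a7 (-0.40), Slc39a7 (-0.32), Slc25a44 (-0.29) and Slc44a1 (-0.25). These distances carry no test.

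With 2.6 in place of 1 mW, coverage was higher for 58 of 61 Slc genes and lower for 0, also at an unadjusted p under 0.05. Over all genes 93.4% were called higher and 0 of 3203 lower at either threshold. The median change was 1.06, against 1.22 for all genes, but among members with a mean of at least 10 it was 1.55 against 1.48, and without the floor members 49 of 50 were called, against 95.8% of the other genes. Set beside genes of equal coverage, 35 changed by more and 23 by less; with the 30 and 180 s libraries of 1 mW and 1x left out, 26 of 61 changed by more.

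A pair of zinc carriers of the Slc39 subfamily had the largest laser changes. Slc39a7 had 6, 5 and 62 with 1 mW and 1x and 17, 17 and 96 with 1 mW and 4.2x, but 81, 68 and 139 with 2.6 mW and 1x and 139, 130 and 183 with 2.6 mW and 4.2x. At each time both 2.6 mW libraries lay above both 1 mW libraries, and over all times the highest 1 mW library, 96, lay inside the range of the 2.6 mW libraries. The change was 2.33 ± 0.34 (adjusted p = 2.34e-08, 6 of 6 pairs), 0.65 above genes of equal coverage. Slc39a10 had 4, 4 and 31, then 29, 22 and 64 at 1 mW, and 102, 70 and 107, then 80, 102 and 127 at 2.6 mW, a change of 2.23 ± 0.34 (adjusted p = 4.42e-08). Of its 2.6 mW libraries at 30 s the 1x library was the higher, so it was higher with 4.2x Dazl in 5 of 6 pairs.

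Next came the bicarbonate carrier Slc4a7 with 1.93 ± 0.30, Slc38a2 with 1.86 ± 0.39 and Slc35c1 with 1.83 ± 0.31. The third Slc39 member, Slc39a11, changed by 1.72 ± 0.29, while the Slc30 members, of the subfamily that moves zinc out of the cytoplasm, changed by 1.58 ± 0.30 (Slc30a6) and 0.78 ± 0.29 (Slc30a7). All 5 of these metal ion genes were called higher. The members not called were the adenine nucleotide carrier Slc25a4, with 0.43 ± 0.26 (adjusted p = 0.108), and the floor members Slc51a and Slc6a15. Slc25a4 had 3, 2 and 13, then 7, 5 and 15 at 1 mW, and 2, 1 and 27, then 7, 18 and 30 at 2.6 mW, so that the 2.6 mW library was the higher in 3 of 6 pairs.

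Among the same 41 members the laser change was furthest above genes of equal coverage for Slc39a7, Slc39a10 (0.56), Slc27a2 (0.51), which activates and takes up fatty acids, Slc4a7 (0.47) and Slc7a6os (0.44). Furthest below were Slc27a3 (-0.74), Slc30a7 (-0.66), Slc25a4 (-0.65), Slc10a7 (-0.57) and Slc25a48 (-0.52), so the members of 1 subfamily, Slc27, lay on both sides. The smallest called changes for Dazl and for laser were those of the floor members Slc15a2, Slc17a6 and Slc22a12 (0.15) and Slc25a51 and Slc9a4 (0.20), and these 5, with Slc6a15 level with the first 3, had the smallest called changes with time (0.23 to 0.31).

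**Figure D3:**
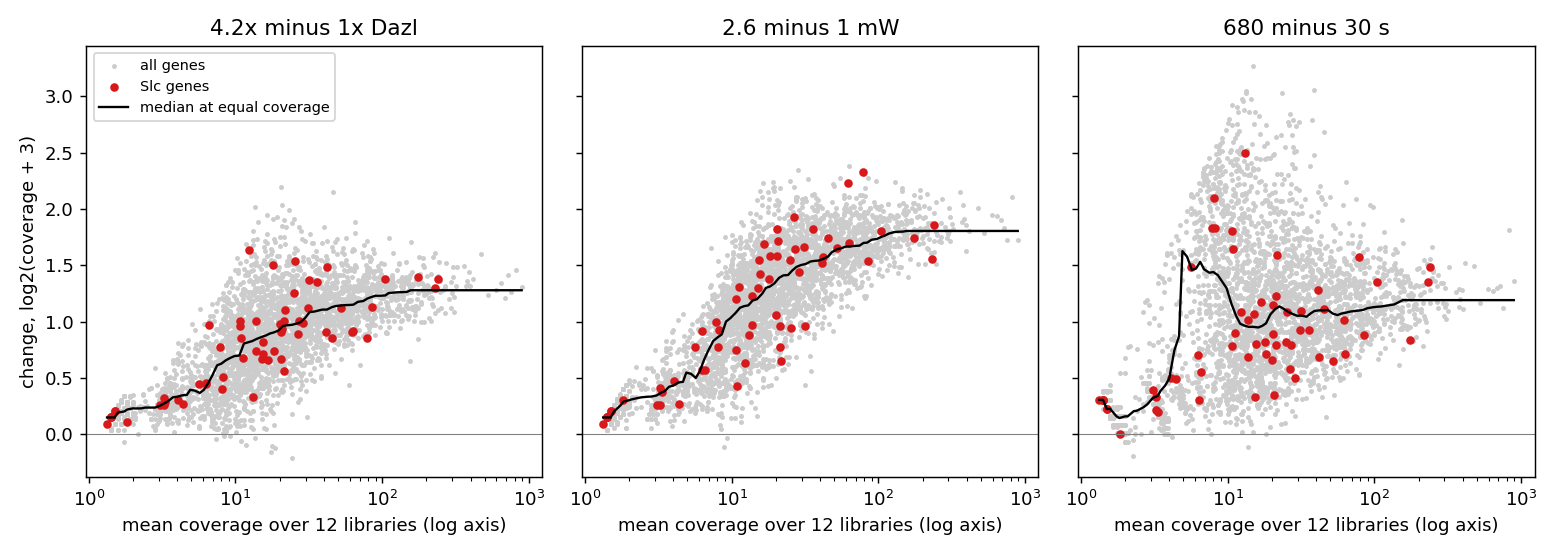
Change in log2(coverage + 3) (vertical) against mean coverage over the 12 libraries (horizontal, log axis) for all 3203 genes and the 61 Slc genes, in 3 panels for Dazl level, laser power and time; the black line is the median of the genes nearest in coverage. Slc genes scatter on both sides of the line, with Slc6a6 (1.64, Dazl) and Slc39a7 (2.33, laser) as the highest Slc points of their panels and Slc25a11 (2.10) among the high points for time.

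At 680 s coverage was higher than at 30 s for 45 of 61 Slc genes and lower for 0, also at an unadjusted p under 0.05. Over all genes 73.0% were called higher and 0 of 3203 lower at either threshold. The median change was 0.82 for the Slc genes and 1.03 for all. Of the members above the floor 37 of 50 were called, against 76.9% of the other genes. The count was 26 when the library of 680 s, 2.6 mW and 1x was left out (54.2% of all genes) and 15 with a slope on log2 time in place of the 2 times (38.2% of all genes). At equal coverage 26 changed by more than the neighbours' median and 33 by less, and among the 41 members with a mean of at least 10 the counts were 17 and 24, with medians of 0.93 for Slc and 1.11 for all such genes.

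The mitochondrial oxoglutarate carrier Slc25a11 was among the members with the largest changes with time. Slc25a11 had 1, 1 and 13, then 1, 1 and 12, then 2, 1 and 23, and 4, 11 and 27, in the order of series used above. At 30 s all 4 libraries stood at 4 or below and at 680 s all stood at 12 or above, with no overlap. The change was 2.10 ± 0.24 (adjusted p = 1.66e-12, 4 of 4 pairs), 0.55 above genes of equal coverage. The 180 s library stood well above the 30 s library in the series of 2.6 mW and 4.2x alone.

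Slc1a3, a glutamate carrier, and Slc25a16 both changed by 1.83 (SE 0.25 and 0.26), and Slc38a7, a lysosomal amino acid carrier, by 1.81 ± 0.31. At equal coverage, members far above with a mean of at least 10 were Slc25a4 and Slc39a7 (both 0.49), Slc27a3 (0.45) and Slc38a7 (0.40), and of such members the furthest below were Slc39a11 (-0.79), Slc25a17 (-0.59), Slc35a5 (-0.55), Slc25a30 (-0.51) and Slc4a7 (-0.50). At the other end 16 members were not called. They include Slc16a1 (0.84 ± 0.46, adjusted p = 0.0871), Slc7a5 (0.88 ± 0.42, adjusted p = 0.0528), Slc7a1 (0.72 ± 0.41, adjusted p = 0.0992), Slc33a1 (0.65 ± 0.40, adjusted p = 0.133) and Slc39a11 (0.35 ± 0.35, adjusted p = 0.341). Slc7a1 had 11, 8 and 42 with 1 mW and 1x, 37, 30 and 60 with 1 mW and 4.2x, 66, 58 and 97 with 2.6 mW and 1x, and 118, 108 and 118 with 2.6 mW and 4.2x. In the last series its coverage at 30 s was already that at 680 s, while in the first it was 26.2% of it.

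By family the counts of calls stood against 82.4% (Dazl), 93.4% (laser) and 73.0% (time) of all genes, and no test of the difference was run. Of the amino acid group, 19 of 20 members were called higher for Dazl, 19 for laser and 16 for time. The counts were 4, 5 and 3 of 5 for metal ion carriers, 6, 7 and 6 of 7 for inorganic ions and pH, 7, 7 and 6 of 8 for mitochondrial carriers and 5, 6 and 3 of 6 for nucleotide sugar and nucleoside carriers. Both sugar and vitamin carriers, Slc19a1 and the insulin-regulated glucose carrier Slc2a4, were called for Dazl and laser and neither for time. Slc16a1 was called for Dazl and laser. Of the 12 members of other families 11 were called for each factor, floor members included.

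All p-values here treat the 12 libraries as separate measurements. The deposited values are linked within a series of times. With 2.6 mW and 4.2x, 77 (57.9%) of the 133 Slc regions that reached 10 by 680 s carried an identical value at 30 s. Over all such regions the share of ties was 45.6%. In that series 0 of 152 Slc regions and 0 of all 7838 regions were lower at 680 s than at 30 s. The p-values may therefore be too small or too large. In the other 3 series ties made up 1.85% to 5.60% of Slc regions and 0.318% to 2.56% of all such regions.

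Since every library differs in its total, each was also scaled to the same total. A change then means more or less than the library as a whole, save for members at the floor. Their lowest listed values were multiplied along with the library: Slc15a2, at 1 to 3 throughout, changed by -0.38 for Dazl and -0.52 for laser. Floor members are part of the counts below. Scaling moved the median change of all genes from 0.88 to -0.07 for Dazl, from 1.22 to -0.08 for laser and from 1.03 to -0.01 for time. On scaled values 0 of 61 Slc genes were called for Dazl in either direction (0.0% of all genes). At an unadjusted p under 0.05, 5 Slc genes were higher and 1 lower, against 280 and 259 of all 3203 genes. For laser 0 were called as well (0.0% of all genes). At the unadjusted threshold 5 Slc genes were higher and 17 lower for laser, against 296 and 631 of all 3203 genes. Floor members, such as Slc15a2, Slc17a6 and Slc22a12 (each -0.52), were among the 17, so that count says little of a response of the carriers. With each library centred on its median gene instead, 12 Slc genes were called for Dazl, 10 of them lower (3.06% of all genes higher and 15.1% lower), and 23 for laser, 17 of them lower (10.8% and 22.9% of all genes).

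For time, 4 Slc genes were called on scaled values, 2 higher and 2 lower. Slc25a11 (1.19 ± 0.33, adjusted p = 0.0273) changed by more than the library, in a direction in which 9.62% of all genes were called. Slc16a1 (-0.40 ± 0.11, adjusted p = 0.0303) and Slc7a1 (-0.46 ± 0.15, adjusted p = 0.0496) changed by less, where 1.59% of all genes were called. These calls depended on single libraries. The count was 0 without any 1 of the 680 s libraries of 1 mW and 1x, 1 mW and 4.2x, or 2.6 mW and 4.2x, or of the 30 s libraries of 2.6 mW and 1x or of 2.6 mW and 4.2x. In these fits 3.12% to 6.56% of all genes were called higher and 0.375% to 0.905% lower. It was 1 with the library of 30 s, 1 mW and 4.2x left out (3.22% of all genes higher, 0.874% lower) or that of 680 s, 2.6 mW and 1x (4.21% and 0.406%). With that of 30 s, 1 mW and 1x left out it was 7, where 12.6% of all genes were called higher and 2.25% lower. On libraries centred on the median it was 16, with 14 lower, where 10.2% of all genes were called higher and 19.5% lower.

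The summed Slc coverage moved with the libraries in each matched pair. From 1x to 4.2x Dazl at 1 mW it was 4.79, 4.58 and 1.90 times as high at 30, 180 and 680 s, where the library totals were 5.00, 4.29 and 1.93 times as high. At 2.6 mW the Slc ratios were 1.86, 2.09 and 1.21. From 1 to 2.6 mW they were 5.78, 7.81 and 2.66 with 1x Dazl and 2.24, 3.57 and 1.69 with 4.2x. From 30 to 680 s the Slc sum was 4.67 times as high with 1 mW and 1x (library 5.33), 1.85 with 1 mW and 4.2x (2.06), 2.15 with 2.6 mW and 1x (2.22) and 1.40 with 2.6 mW and 4.2x (1.45), each below the ratio of the totals. As a share of the library the Slc genes stood between 1.54% and 1.62% in the 4 libraries of 680 s and between 1.64% and 1.79% in the 8 others.

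Smaller Dazl ratios at the higher laser power were seen in the sums, and the difference itself was tested gene by gene. The product of Dazl level and laser power was called for 0 of 61 Slc genes (limma), while 0.0% of all genes were called above 0 and 0.0312% below. An unadjusted p under 0.05 was found for 13 Slc genes and for 486 of all 3203 genes. The median product was -0.28 for the Slc genes and -0.26 for all. With the library of 680 s, 1 mW and 1x left out, 16 Slc genes were called, all below 0, against 25% of all genes below 0 and 1.87% above.

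The course over time was next read as the share of the 680 s coverage already present at 30 s. For the 41 members with a mean of at least 10 the median share was 20% with 1 mW and 1x, 56.4% with 1 mW and 4.2x, 50% with 2.6 mW and 1x and 80.8% with 2.6 mW and 4.2x. All 2204 genes with such a mean had 15.4%, 50%, 44.2% and 72.9%. The Slc median was the higher in each series, without a test, and the same genes enter all 4. With 2.6 mW and 4.2x, 13 of the 41 had exactly the same coverage at 30 and 680 s, and so did 535 of the 2204 genes. In that series single members reached up to 100%.

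Coverage at 180 s was often below that at 30 s. This held for 36 of the 41 members with 1 mW and 4.2x, 20 with 1 mW and 1x, 21 with 2.6 mW and 1x and 19 with 2.6 mW and 4.2x. Of all 2204 genes with a mean of at least 10 it held for 1732, 826, 1249 and 841 in the same order. Among regions with at least 10 at 680 s it held, with 1 mW and 4.2x, for 58.4% of Slc regions and 58.3% of all. With 1 library per time the error of these counts and shares is unknown.

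**Figure D4:**
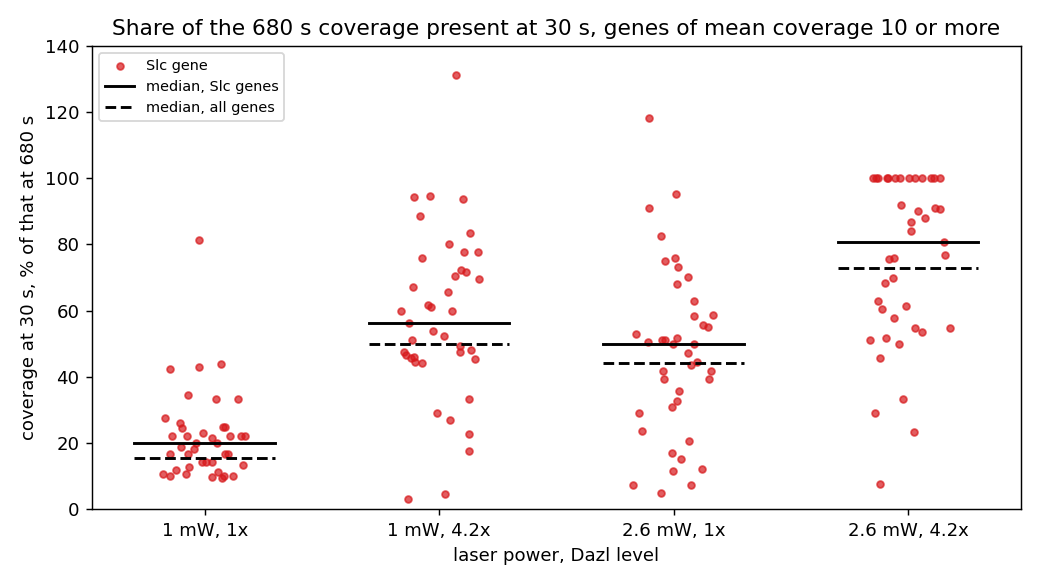
Coverage at 30 s as a percentage of that at 680 s (vertical) for the 41 Slc genes with a mean coverage of at least 10 (points, spread sideways at random), in the 4 series of laser power and Dazl level; solid lines are Slc medians and dashed lines medians of all 2204 such genes. The Slc median is 20% with 1 mW and 1x and 80.8% with 2.6 mW and 4.2x, each above the dashed line.

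Regions of 1 gene did not share 1 course. In Slc38a2 with 2.6 mW and 4.2x, 6 of 13 regions had the same coverage at 30 and 680 s, 6 had no more than 50% of it and 2 no more than 10%. The region chr15:96688042-96688058, 650 nt from the 3′ end, had 1, 1 and 54 at 30, 180 and 680 s, whereas its neighbour chr15:96688005-96688021, with 20 nt between them, had 34, 38 and 48. The region chr15:96687791-96687807 had 1, 1 and 37. These late regions were also at 1 or 2 in all other libraries of 30 and 180 s, while the neighbour stood at 16 or more in them except with 1 mW and 1x, where it stood at 1.

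**Figure D5:**
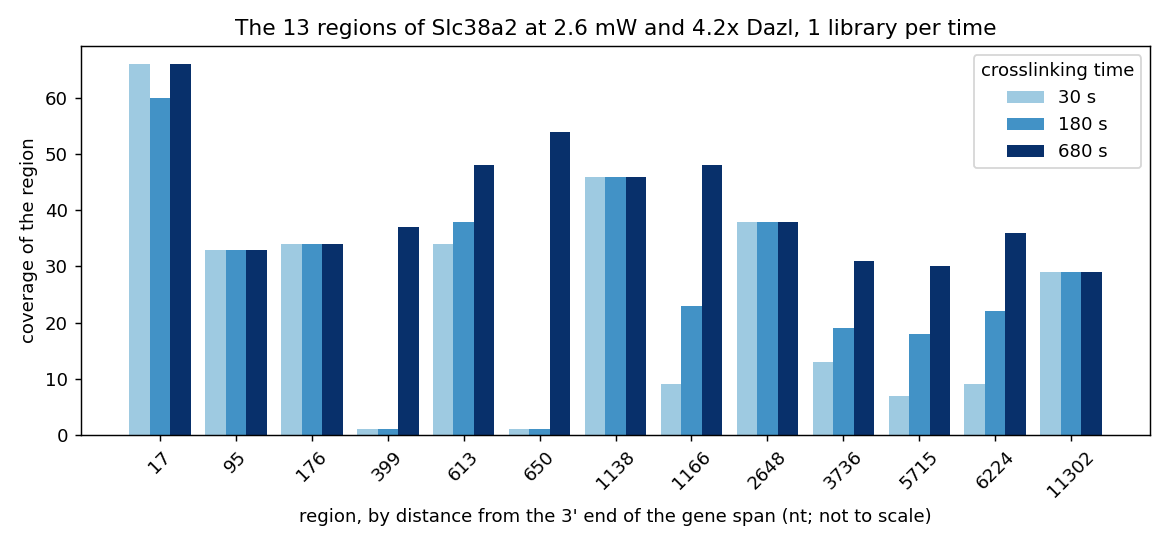
Coverage (vertical) of the 13 regions of Slc38a2 at 30, 180 and 680 s with 2.6 mW and 4.2x Dazl, 1 library per time, ordered by distance from the annotated 3′ end in nt (horizontal, not to scale). The regions at 399 and 650 nt stand at 1 until 680 s, where they reach 37 and 54, while 6 regions have equal bars at 30 and 680 s.

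The same contrast between neighbours was seen in other carriers. In Slc39a7 the region chr17:34028380-34028396 had 1, 1 and 40 with 2.6 mW and 4.2x, and the next, 28 nt away, had 36, 29 and 36. In the amino acid carrier Slc36a4 regions 16 nt apart had 100% and 13.3% of their 680 s coverage at 30 s. In Slc38a1, 9 of 21 regions were equal at 30 and 680 s and 11 had no more than 50% at 30 s, among them 2 with no more than 10%. Slc16a1 and Slc7a1 were more even: 8 of 10 and 4 of 4 regions were equal, and the 1 region of Slc16a1 far below, with 5, 19 and 33, was the one near the 5′ end.

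The share of late regions was near that of the series. Of the 133 Slc regions with at least 10 at 680 s, 9 (6.77%) had no more than 10% at 30 s, against 8.10% of 6922 such regions, and 38 (28.6%) had no more than 50%, against 33% of all. With single libraries these shares have no error between replicates.

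Genes known to act with or on the carriers were set beside them as a list: partners such as basigin, kinases and ligases that regulate carriers, iron handling genes and subunits of the sodium pump. The listed name Nherf1 found no match and is left out of these counts. It is Slc9a3r1, an Slc symbol with a mean of 27.1, called higher for Dazl, laser and time. Of 31 names matched to RefSeq symbols, 17 had a value, Slc3a2 among them. Of these, 17 were called higher for Dazl, 17 for laser and 16 for time, with 0 lower. Over all genes 82.4%, 93.4% and 73.0% were called higher, with 0 lower. The median mean coverage of the 17 was 51.8, against 16.3 for all genes. At equal coverage 11, 9 and 11 of the 17 lay above their neighbours for Dazl, laser and time, and 6, 8 and 6 below. Bsg, the partner of Slc16a1, had a mean of 221 and changed by 1.57 ± 0.38 (Dazl), 2.01 ± 0.38 (laser) and 1.03 ± 0.47 (time), against 1.39, 1.74 and 0.84 for Slc16a1. The transferrin receptor Tfrc had a mean of 284 (1.20 ± 0.39, 1.84 ± 0.39 and 1.34 ± 0.48). Cd44 was the member not called for time (0.72 ± 0.36, adjusted p = 0.0640).

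Other membrane transporters, that is pumps, ABC transporters and channels, had a value for 50 of 262 symbols, with a median mean coverage of 8.96. Of these 42 were called higher for Dazl, 46 for laser and 36 for time, shares near those of all genes (82.4%, 93.4% and 73.0%). The highest were Atp13a3 (249), Ano6 (209) and the calcium pump Atp2a2 of the endoplasmic reticulum (178). Median changes of the list were 0.58 for Dazl, 0.79 for laser and 0.81 for time, and at equal coverage 25, 26 and 23 of the 50 lay above their neighbours.

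Regions shared with an overlapping gene were summed apart. The 4 regions in both Slc5a3, the inositol carrier, and Mrps6 had a mean summed coverage of 45.2, from 5 to 89 over the libraries. The region in Slc51b and Rasl12 had 19, and that in the lactate carrier Slc16a3 and Csnk1d 17.2. A region in Slc6a9, the glycine carrier, and Ccdc24 had 5.33 and is not part of the Slc6a9 value. They show that some coverage in carrier spans is not counted in the 61 values.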

How the data were processed

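The deposited values are a score that the authors call normalized coverage, whole numbers per interval with no strand and no header. The submitters' processing notes name FastQC, Bowtie2 and the mm10 build; their versions, and how reads were counted and normalized and sites selected, were "not given in the sources used here". Neighbouring intervals with gaps of up to 10 nt were joined over all libraries, and each region was given to a gene of the RefSeq table (GRCm38.p6) if it lay in 1 gene or in 1 protein-coding gene among several. Deposited interval starts were read as counted from 0, and positions are given from 1.

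Genes were tested with limma 3.58.1 (R 4.3.3) on log2(coverage + 3), additive in time, laser and Dazl, with eBayes trend and robust settings, 7 residual degrees of freedom (a median of 107.09 prior ones on deposited and 11.012 on scaled values) and Benjamini-Hochberg adjustment over all 3203 genes. The fit on scaled values was also run on simulated data with independent noise in each library. The deposited values are linked, so that run does not vouch for the p-values here. Changes were set beside the median of the genes nearest in mean log2 coverage. Genes named are the 15 with the highest mean, the 5 called with the largest and with the smallest change per comparison, calls on scaled values, the 5 furthest from genes of equal coverage on each side, those with the most regions, and the floor members; Slc2a4, Slc30a6, Slc36a4, the named regions, shared regions and other genes were chosen after their values were seen. Members and lists were chosen with earlier results of these data known. Alternatives were other pseudocounts (1, 10), a mean of at least 10, regions in 1 gene only, joining at 50 nt, plain eBayes, each library left out, centring on the median, a slope on log2 time and 51 nearest genes. After seeing the data 3 more were added: floor genes left out, the 30 and 180 s libraries of 1 mW and 1x left out together, and Slc7a6os and Slc9a3r1 left out. No sequences are shown. Some genes that the rule names are not reported here.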

Additional observations from a re-analysis of the deposited data

How the results depend on the processing

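On deposited values the counts of Slc genes called higher kept to between 50 and 58 for laser and between 39 and 54 for Dazl when each library was left out in turn, and between 26 and 51 for time, where 26 came with the library of 680 s, 2.6 mW and 1x left out. Over all genes the share called higher ran from 87.2% to 94% for laser, from 69.5% to 82% for Dazl and from 52.4% to 82% for time. A slope on log2 time in place of 680 against 30 s gave 15 Slc genes (38.2% of all genes). On scaled values, centring on the median gave 12 calls for Dazl (10 lower), 23 for laser (17 lower) and 16 for time (14 lower). Leaving out each library gave 0 for Dazl, where at most 1.34% of all genes were called higher and 0.219% lower. For laser it gave 0 to 1 (1 with the library of 680 s, 1 mW and 4.2x left out, where 0.812% of all genes were called higher and 0.219% lower). For time it gave 0 to 7, where 3.12% to 12.6% of all genes were called higher and 0.375% to 2.25% lower. The 4 scaled calls for time became 1 with plain eBayes (8.24% of all genes higher, 0.874% lower) and 2 among genes with a mean of at least 10 (7.12% and 2.04%). Without the 30 and 180 s libraries of 1 mW and 1x they became 15, with 9 lower, where 19.6% of all genes were called higher and 9.4% lower. Of the 4 calls, Slc16a1 was kept in 12 of 20 alternatives, Slc25a11 in 12 of 19 and Slc7a1 in 6 of 20. The product of Dazl and laser gave 0 to 16 calls with each library left out. Members above genes of equal coverage numbered 22 to 28 for Dazl, 29 to 36 for laser and 22 to 26 for time with each library left out; 26 for laser without the 30 and 180 s libraries of 1 mW and 1x, and 18 for time with the 51 nearest genes. The cause was not tested, except that fewer libraries or genes enter some of these fits. Of 2317 values of the 39 named genes under alternatives, 2069 kept direction and side of the threshold, 219 lost their call, 29 gained one and 0 reversed. Leaving out the 2 genes that encode neither a carrier nor a subunit of one, and joining at 50 nt, moved no count by over 1.5 times.

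With 1 library per condition no result has an error between replicates of a condition, and depth in reads is unknown. Libraries were matched through the crossed design, since no replicate number links them.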
